A study of Mus musculus with 10 samples.

Results

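Granins and neuropeptides are the cargo of the dense-core vesicles of sympathetic neurons and chromaffin cells, and 9 genes for such cargo are described here in tumours of TH-MYCN mice. The genes were named by symbol and found through the Ensembl identifiers of the count files. They are 6 granins (Chga, Chgb, Scg2, Scg3, Scg5 and Vgf) and 3 neuropeptides (Npy, Gal and Vip), which makes 9 of 54446 genes. TH-MYCN mice carry a MYCN transgene under a tyrosine hydroxylase promoter, so it acts in catecholamine-making cells, and they develop neuroblastoma. Whole tumours were frozen, and polyadenylated RNA was sequenced from 3 libraries of untreated mice, 3 libraries after 24 h of treatment and 4 libraries after 5 days of treatment. All 10 libraries carry the strain label TH-MYCN, and ages are not given in the labels. The titles call the treatment a combination of MLN8237 (alisertib, an Aurora-A inhibitor) and AZD6738 (ceralasertib, an inhibitor of the checkpoint kinase ATR), whereas the design text links them with "or". The question the design sets is how expression differed between untreated tumours and both treatment times.

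Granins are acidic proteins that aggregate in the trans-Golgi network and are packed, together with catecholamines and peptides, into dense-core vesicles. Convertases and carboxypeptidases inside these vesicles cleave granins and neuropeptide precursors into shorter active peptides, which leave the cell when calcium triggers fusion. Chromogranin A is a circulating marker of neuroendocrine tumours, and neuropeptide Y is released with noradrenaline by sympathetic neurons. Several of these genes are known to respond to cAMP and neuronal activity through the transcription factor CREB.

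The binding sequence of CREB lies in several promoters of these genes, and the windows are printed because the full element is shared by Chgb, the most abundant granin, and Scg2, the granin with the largest 5-day fold change. RefSeq windows of 300 bases (GRCm38.p6, from 250 bases before to 50 after the gene start) were matched by symbol for 8 of the 9 genes, and none was matched for Vgf. Both strands were searched for the cAMP response element TGACGTCA and for TGACG, which is contained in it. TGACGTCA was present in 2 of 8 windows, those of Chgb and Scg2, against 1.79% of 32851 windows of the same length. TGACG was present in 7 of 8 windows, with Npy as the exception, against 20.8% of all windows. The last 100 bases before the start follow for the 5 genes with a match within them, with the match in capitals. They lie at chr12:102554841-102554940 (plus strand) for Chga, chr2:132781542-132781641 (plus) for Chgb, chr1:79440027-79440126 (minus) for Scg2, chr9:75684057-75684156 (minus) for Scg3 and chr10:5639118-5639217 (plus) for Vip.
Chga: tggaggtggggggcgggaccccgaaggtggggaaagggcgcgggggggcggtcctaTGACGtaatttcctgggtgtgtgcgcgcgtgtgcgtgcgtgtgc
Chgb: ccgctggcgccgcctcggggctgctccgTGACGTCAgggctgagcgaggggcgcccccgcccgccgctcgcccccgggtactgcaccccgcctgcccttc
Scg2: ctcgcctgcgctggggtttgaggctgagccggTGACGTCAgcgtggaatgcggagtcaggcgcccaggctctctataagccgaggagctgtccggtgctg
Scg3: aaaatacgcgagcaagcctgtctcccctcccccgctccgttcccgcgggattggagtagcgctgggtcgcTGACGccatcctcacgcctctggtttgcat
Vip: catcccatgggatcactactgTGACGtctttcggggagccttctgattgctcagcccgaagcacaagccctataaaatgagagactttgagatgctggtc
The full element began 72 bases before the RefSeq start in Chgb and 68 bases before it in Scg2. The GENCODE gene spans given with the values of these genes begin upstream of the RefSeq starts and contain both elements. The short match began 44 bases before the start in Chga, 30 in Scg3 and 79 in Vip. A match describes these letters and shows neither binding nor use.

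The libraries held 5576926 to 5696436 counts, and levels are given as CPM, the count scaled to a common library size with TMM factors. A gene without a count could reach 0.516 to 0.655 CPM (3 counts), a bound on counting error alone. The labels do not state that each library is a separate mouse, and the p-values therefore measure variation among libraries, which may be technical. Sympathetic identity was present in the tumours: 14 genes of adrenergic identity, such as Hand2, summed to 2449.6 to 3105 CPM in 9 libraries, and none of them was at 0 in any library. The exception was 5-day library 1, where they summed to 816 CPM. Its mean rank correlation with the other libraries was 0.740, against 0.944 to 0.954 for the others. In this library, summed markers of macrophages reached 12962 CPM, of fibroblasts 18168 CPM and of adipocytes 8093 CPM, against 549 to 1546, 238 to 2647 and 16.5 to 1055 CPM in the other 9. Library 2 of the 5-day group carried 1873 CPM of adrenal cortex markers, against 69.0 to 174 CPM in the others, and skeletal muscle markers reached 480.1 CPM in this library and 175 CPM in 5-day library 4, against 2.98 to 8.95 CPM in the other 8. Every comparison was therefore fitted to all 10 libraries and again to the 9 without 5-day library 1. In whole tumours, fewer cells of a type and less RNA per cell cannot be told apart.

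Chromogranin B was the dominant transcript of the group. Per kb of the longest coding transcript, untreated tumours held 344 ± 82.6 CPM per kb of Chgb, the second chromogranin (SD, n = 3). Chga followed with 117 ± 41.2 CPM per kb, Scg5 with 80.6 ± 4.67 and Scg3 with 55.5 ± 3.34. Among all 14956 genes tested, only 0.863% stood above Chgb in the untreated mean per kb of exon, 5.28% above Chga, 6.97% above Scg5 and 9.38% above Scg3. The other 5 genes were far lower on the same scale, at 10.7 ± 6.81 CPM per kb for Npy, 5.10 ± 0.946 for Vgf, 1.85 ± 0.708 for Gal, 0.810 ± 0.349 for Scg2 and 0.228 ± 0.197 for Vip. Of the neighbours in this order, only the untreated ranges of Chga and Scg5 overlapped, and Chga stood above Scg5 in 8 of 10 libraries. Npy stood above Vgf in 9 of 10 libraries and Gal above Scg2 in 5 of 10, whereas every other neighbour kept its place in all 10.

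**Figure D1:**
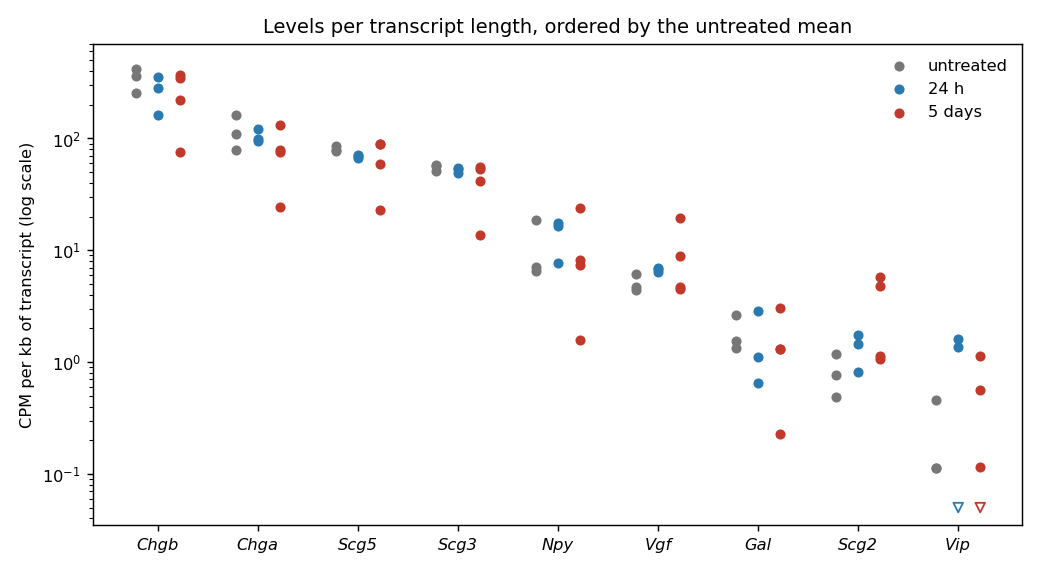
Levels in CPM per kb of the longest coding transcript on a log axis, 1 point per library, coloured by group, with genes ordered by the untreated mean; open triangles mark libraries without a count. Chgb, Chga, Scg5 and Scg3 form an upper group in every library, and Vip lies lowest in untreated tumours.

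Neither chromogranin passed the test between treated and untreated tumours. Chga (chr12:102554969-102565028, plus strand of mm10) encodes chromogranin A, which drives granule formation and is the precursor of peptides such as catestatin. Its level was 303, 149.8 and 207 CPM in untreated libraries 1, 2 and 3, 179.7, 227 and 185 CPM in 24 h libraries 2, 3 and 4, and 45.8, 142, 249 and 149 CPM in 5-day libraries 1 to 4. The groups overlapped, and 5-day library 1 alone lay far below the rest. The log2 fold change was -0.16 ± 0.49 (SE) at 24 h and -0.59 ± 0.46 at 5 days against untreated tumours, with edgeR adjusted p = 1.00 and 0.604. Without 5-day library 1 the 5-day value was -0.29 ± 0.30, with a 95% interval of -0.98 to 0.40.

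Chgb (chr2:132781278-132795079, plus strand) encodes chromogranin B, which binds calcium in the vesicle lumen. It was measured at 1138, 695 and 997 CPM in untreated libraries 1, 2 and 3, at 981, 769 and 441 CPM in 24 h libraries 2, 3 and 4, and at 207, 601, 1003 and 946 CPM in 5-day libraries 1 to 4. One 24 h library, number 4, lay below all untreated libraries, whereas Chga lay within its untreated range there. Fitted log2 fold changes were -0.37 ± 0.53 at 24 h and -0.45 ± 0.49 at 5 days, with edgeR adjusted p = 1.00 and 0.694. Without 5-day library 1 the 95% interval at 5 days ran from -0.93 to 0.62, so a difference of either sign remained within it.

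Scg3 and Scg5 were the steadiest of the 9 genes. Scg3 (chr9:75643189-75684056, minus strand) encodes secretogranin III, which links chromogranin A to the cholesterol-rich granule membrane. It stood at 138, 123 and 136 CPM in untreated tumours, at 127, 118 and 131 CPM at 24 h, and at 32.5, 98.9, 127 and 133 CPM at 5 days. Apart from 5-day library 1, no library lay outside 98.9 to 138 CPM, and the coefficient of variation over these 9 libraries was 9.43%, against 3.72% from counting alone. The 9-library fit put the 24 h difference at -0.07 ± 0.11 on the log2 scale (interval -0.32 to 0.17) and the 5-day difference at -0.14 ± 0.11 (interval -0.39 to 0.10).

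Scg5 (chr2:113776362-113829121, minus strand) encodes 7B2, the chaperone without which proprotein convertase 2 does not mature. Its level was 95.9, 104 and 92.5 CPM in untreated tumours, 80.3, 85.9 and 84.2 CPM at 24 h, and 27.9, 71.7, 108 and 107 CPM at 5 days. All 24 h libraries lay below all untreated libraries, as 6.69% of the tested genes did, whereas the 5-day libraries lay on both sides of the untreated range. At 24 h the log2 fold change was -0.22 ± 0.40 with 10 libraries and -0.22 ± 0.14 with 9, with edgeR adjusted p = 1.00 and 0.724. At 5 days it was -0.31 ± 0.37 and, without library 1, -0.03 ± 0.14 (interval -0.33 to 0.27).

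Scg2 and Vgf were the 2 granins with fold changes above 0 at 5 days against untreated tumours in both fits, and their high libraries differed in part. Scg2 (chr1:79434669-79440120, minus strand) encodes secretogranin II, the precursor of secretoneurin. It was rare in untreated tumours, at 1.23, 2.97 and 1.92 CPM from 7, 17 and 11 counts, and read 2.07, 4.37 and 3.66 CPM in 24 h libraries 2, 3 and 4. In the 5-day group, libraries 2 and 3 held 12.1 and 14.6 CPM from 70 and 85 counts, while libraries 1 and 4 held 2.84 and 2.67 CPM, within the untreated range. The log2 fold change against untreated tumours was 1.97 ± 0.70 with 10 libraries (unadjusted p = 0.0194, edgeR adjusted p = 0.538). Without 5-day library 1 it was 2.26 ± 0.60, with an interval of 0.94 to 3.58 and an edgeR adjusted p = 0.336. Against 24 h tumours, the 5-day group differed by 1.26 ± 0.67 with 10 libraries and by 1.54 ± 0.57 with 9 on the log2 scale, with edgeR adjusted p = 0.581 and 0.602. Library 2, one of both with high Scg2, was also the library with 1873 CPM of adrenal cortex markers and 480.1 CPM of skeletal muscle markers. In library 3, the other one, these sums were 174 and 8.95 CPM. Cortex transcripts were present in library 3 as well. Cyp11a1, Cyp21a1 and Hsd3b1, chosen after their values were seen, stood at 11.9, 12.4 and 15.7 CPM there. They reached at most 1.22, 0.436 and 0.349 CPM outside 5-day libraries 2 and 3. The part of cortex tissue in the Scg2 values was not tested. Macrophage markers summed to 1546 and 1541 CPM in 5-day libraries 2 and 3, against 549 to 937 CPM in untreated tumours. Schwann cell markers summed to 54.6 and 45.8 CPM there and to 19.0 CPM in 5-day library 4, against 15.4 to 25.3 CPM in untreated tumours. In 5-day library 1 and 24 h library 4, Scg2 was at only 2.84 and 3.66 CPM. Schwann cell markers summed to 106 and 69.5 CPM in those libraries, and macrophage markers to 12962 and 1380.3 CPM. The part of such cells in the result was not tested. Without 5-day libraries 1 and 2 the log2 fold change was 2.08 (adjusted p = 0.526).

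Vgf (chr5:137026392-137033351, plus strand) encodes a granin-like precursor induced by nerve growth factor, whose peptides act on energy balance. It was measured at 17.5, 13.3 and 12.5 CPM in untreated tumours, at 19.5, 18.2 and 19.2 CPM at 24 h, and at 12.7, 13.3, 55.4 and 25.4 CPM at 5 days. All 24 h libraries lay above all untreated ones, as 7.11% of the tested genes did. At 5 days, library 3 was the highest of all and library 4 the second, whereas libraries 1 and 2 lay within the untreated range. Library 4 also held 175 CPM of skeletal muscle markers, against 8.95 CPM in library 3. In the fits, the log2 fold change was 0.39 ± 0.51 at 24 h and 0.89 ± 0.49 at 5 days, with edgeR adjusted p = 1.00 and 0.538. Without 5-day library 1 the 5-day value was 1.12 ± 0.44 (unadjusted p = 0.0339, edgeR adjusted p = 0.561), and without library 3 it was 0.25. Other cell markers also stood higher in all 24 h libraries: macrophage markers, with 10 of 11 tested genes higher, 0 called and Itgam listed at 0 in all 10 libraries, summed to 1199.9 to 1444 CPM at 24 h against 549 to 937 CPM in untreated tumours. Schwann cell markers, with 5 of 5 tested genes higher and 0 called, summed to 34.7 to 69.5 CPM against 15.4 to 25.3 CPM. Their part in the Vgf values was not tested.

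**Figure D2:**
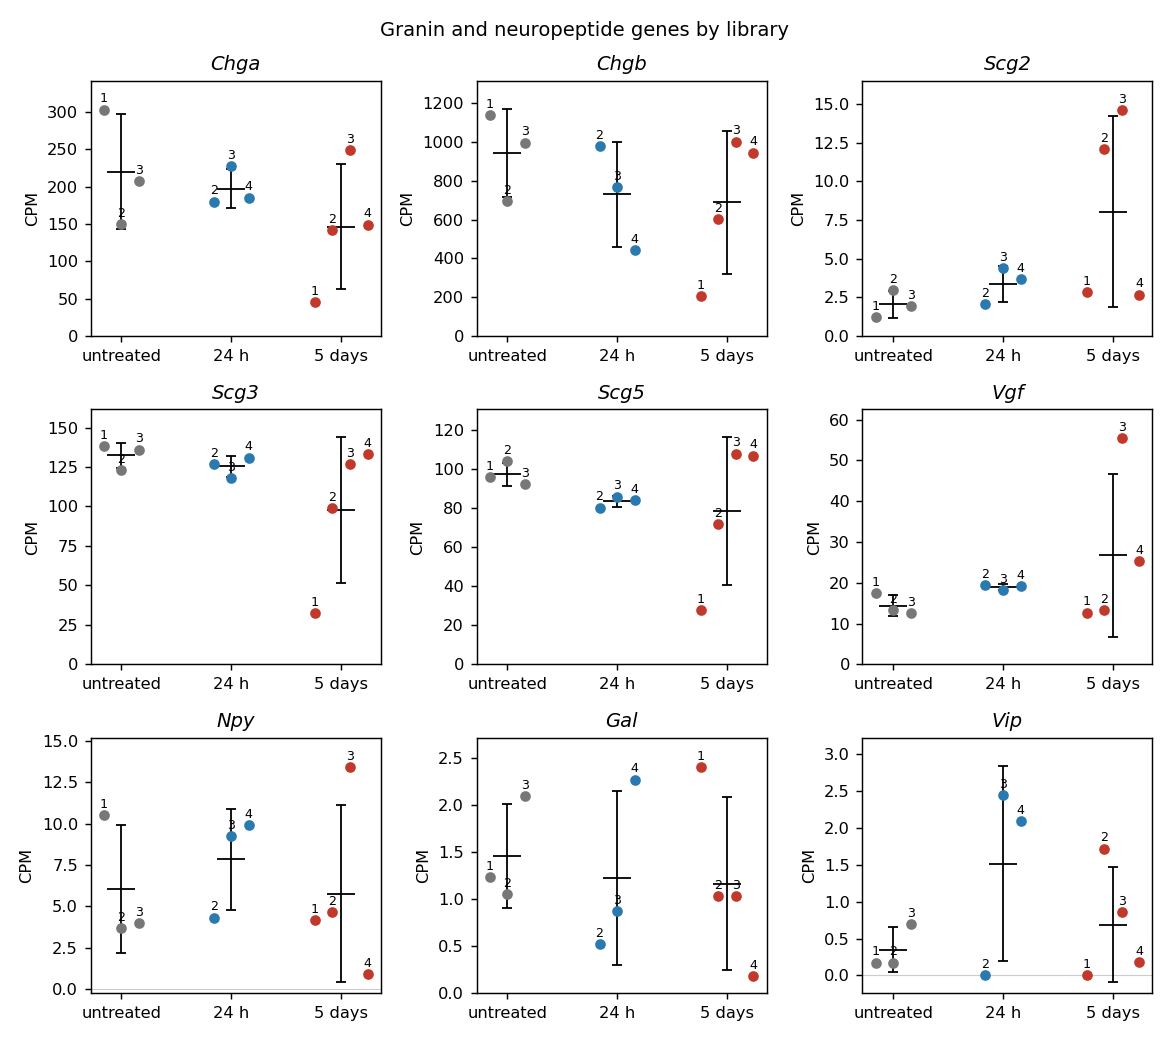
CPM of the 9 genes by group, 1 point per library with its number, and the group mean with its SD as a bar. Chga, Chgb, Scg3 and Scg5 are lowest in 5-day library 1, while Scg2 is high in 5-day libraries 2 and 3 and Vgf in 5-day libraries 3 and 4.

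The 3 neuropeptide genes were low and variable, and none passed the test. Npy (chr6:49822710-49829507, plus strand) encodes neuropeptide Y, a cotransmitter of noradrenaline. It was measured at 10.5, 3.67 and 4.01 CPM in untreated tumours, at 4.32, 9.26 and 9.93 CPM at 24 h, and at 4.15, 4.65, 13.4 and 0.889 CPM at 5 days. Both the highest and the lowest value of the series were in the 5-day group, in libraries 3 and 4. Its log2 fold change was 0.37 ± 0.81 at 24 h and -0.07 ± 0.76 at 5 days, and its sign at 5 days turned to 0.07 ± 0.81 without library 1.

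Gal (chr19:3409915-3414544, minus strand) encodes galanin, a peptide made by sympathetic neurons after injury. Its level was 1.23, 1.05 and 2.09 CPM in untreated tumours, 0.518, 0.873 and 2.27 CPM at 24 h, and 2.40, 1.03, 1.03 and 0.178 CPM at 5 days. These values rest on 1 to 13 counts, and the groups overlapped. Fitted log2 fold changes were -0.25 ± 0.76 at 24 h and -0.35 ± 0.72 at 5 days, with edgeR adjusted p = 1.00 and 0.838 and 95% intervals of -1.97 to 1.46 and -1.97 to 1.27. Gal did not pass the low-count filter once 5-day library 1, its highest library, was left out.

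Vip (chr10:5639218-5647617, plus strand) encodes vasoactive intestinal peptide, which is typical of cholinergic sympathetic neurons. It gave 1, 1 and 4 counts in untreated libraries, 0, 14 and 12 counts in 24 h libraries 2, 3 and 4, and 0, 10, 5 and 1 counts in 5-day libraries 1 to 4. The highest values were 2.45 and 2.09 CPM in 24 h libraries 3 and 4, yet 24 h library 2 had no count, which allows up to 0.518 CPM. The log2 fold change was 2.05 ± 1.31 at 24 h and 0.98 ± 1.32 at 5 days, with edgeR adjusted p = 1.00 and 0.753. Vip passed the low-count filter only through treated libraries, those with 14, 12 and 10 counts. The sign of these values is therefore not independent of the filter. Of 5 markers of cholinergic neurons, 3 were near 0 and 2 were tested. Chat, the acetylcholine-making enzyme, reached at most 0.175 CPM in any library and the choline transporter Slc5a7 at most 0.349 CPM. The vesicular transporter Slc18a3 is listed at 0 in all 10 libraries. Ache, which breaks acetylcholine down, read 1.73, 4.37 and 3.66 CPM in 24 h libraries 2, 3 and 4, against 0.700, 1.05 and 1.57 CPM in untreated tumours, and like Vip it was highest in 24 h libraries 3 and 4. The transcription factor Nr2f1 read 5.18, 8.38 and 1.22 CPM in 24 h libraries 2, 3 and 4, against 2.61 to 7.35 CPM in untreated tumours. Unlike Vip and Ache, it had its lowest value of all 10 libraries in 24 h library 4. Both markers lay higher at 24 h in the fit, with a median log2 fold change of 0.86, and neither was called. Like Vip, Ache passed the low-count filter only through treated libraries. Its sign, and the median that includes it, are therefore not independent of the filter either. Group means at 24 h and in untreated tumours were 3.25 and 1.11 CPM for Ache and 4.93 and 4.31 CPM for Nr2f1. Their part in the Vip values was not tested.

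After 24 h, none of the 9 genes passed an adjusted p of 0.05 against untreated tumours in edgeR's quasi-likelihood test, as was the case for all 14956 genes tested (0% called). All 9 genes passed the low-count filter, Vip only through treated libraries. Before adjustment, 0 of the 9 and 263 of all genes had p under 0.05, and DESeq2 called 0 genes. The fold changes were above 0 for 4 genes and below it for 5, with a median of -0.08 on the log2 scale, against -0.01 over all genes. The groups did not overlap for 2 genes, Vgf and Scg5, against 13.8% of all genes. Without 5-day library 1, 2 of 14699 genes were called (0.0136%), neither among the 8 of the 9 that were tested, of which 4 lay above 0, with a median of 0.15 against -0.00 over all genes.

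After 5 days, again 0 of the 9 genes passed against untreated tumours, with 0% of all genes called by edgeR. Scg2 was the 1 gene of the 9 with an unadjusted p under 0.05, beside 1257 of all genes, and DESeq2 called 21 genes, none of them among the 9. Scg2, Vgf and Vip had fold changes above 0 and the other 6 below, with a median of -0.31 against 0.01 over all genes. No gene of the 9 had groups without overlap, whereas 8.89% of all genes did. Without library 1, 4 of the 8 tested were above 0 and the median was 0.02, against -0.00 over all genes, 0 of 14699 were called, and both Scg2 and Vgf had an unadjusted p under 0.05.

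Between 5 days and 24 h, edgeR called 0% of all genes and 0 of the 9, with 942 and 0 under an unadjusted p of 0.05, and DESeq2 called 3 genes, none among the 9. Only Scg2 and Vgf had fold changes above 0, with a median of -0.10 against 0.03 over all genes. No gene of the 9 had groups without overlap, against 7.67% of all genes. In the fit of 9 libraries, 4 of the 8 tested lay above 0, with Chgb at 0.21 and Scg5 at 0.19 beside Scg2 and Vgf, and the median was 0.06 against -0.00 over all genes. In that fit 0 of 14699 genes were called, and Scg2 had an unadjusted p of 0.0216. The 24 h and 5-day comparisons share the untreated libraries, so their values are not independent of each other.

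**Figure D3:**
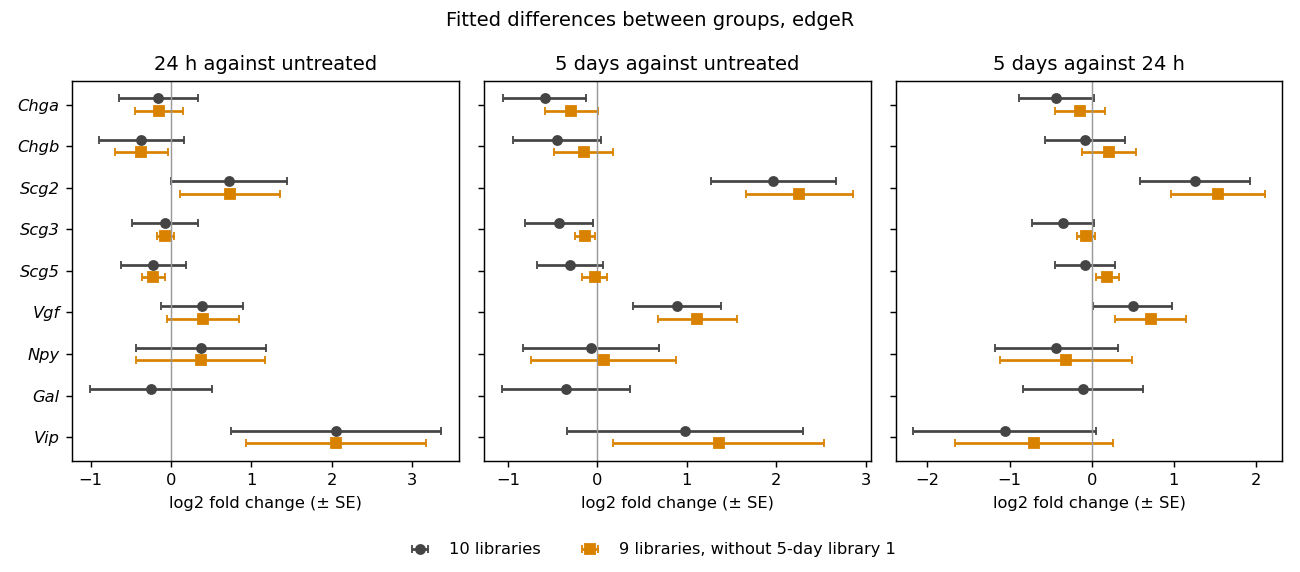
Fitted log2 fold changes with their SE for the 3 comparisons, from all 10 libraries (circles) and from 9 without 5-day library 1 (squares); Gal was not tested in the second fit. Scg2 stands apart at 5 days against untreated tumours, at 1.97 ± 0.70 and 2.26 ± 0.60, and the bars of Chga, Chgb, Scg3 and Scg5 narrow without the library.

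Within 5-day library 1, the abundant granins were low together with the sympathetic profile, whereas Vgf, Npy, Scg2 and Gal stood nearer to or above the untreated mean and Vip had no count. Chga was at 20.8% of the untreated mean, Chgb at 22.0%, Scg3 at 24.6% and Scg5 at 28.7%, while the adrenergic list was at 27.7%. Vgf was at 87.6% of the untreated mean, Npy at 68.4%, Scg2 at 139% and Gal at 165%. Set against the adrenergic sum of each library, the log2 difference of this library from the untreated mean was -0.34 for Chga, -0.30 for Chgb, -0.15 for Scg3 and 0.07 for Scg5. The same difference was 1.68 for Vgf, 1.50 for Npy, 2.30 for Scg2 and 2.46 for Gal. Counts behind the last values were 58, 19, 13 and 11. Rest, a repressor of neuronal genes, was at 39.5 CPM in this library, against 1.75 to 6.03 CPM in the other 9. The part of the macrophage, fibroblast and adipocyte RNA in these values was not tested.

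**Figure D4:**
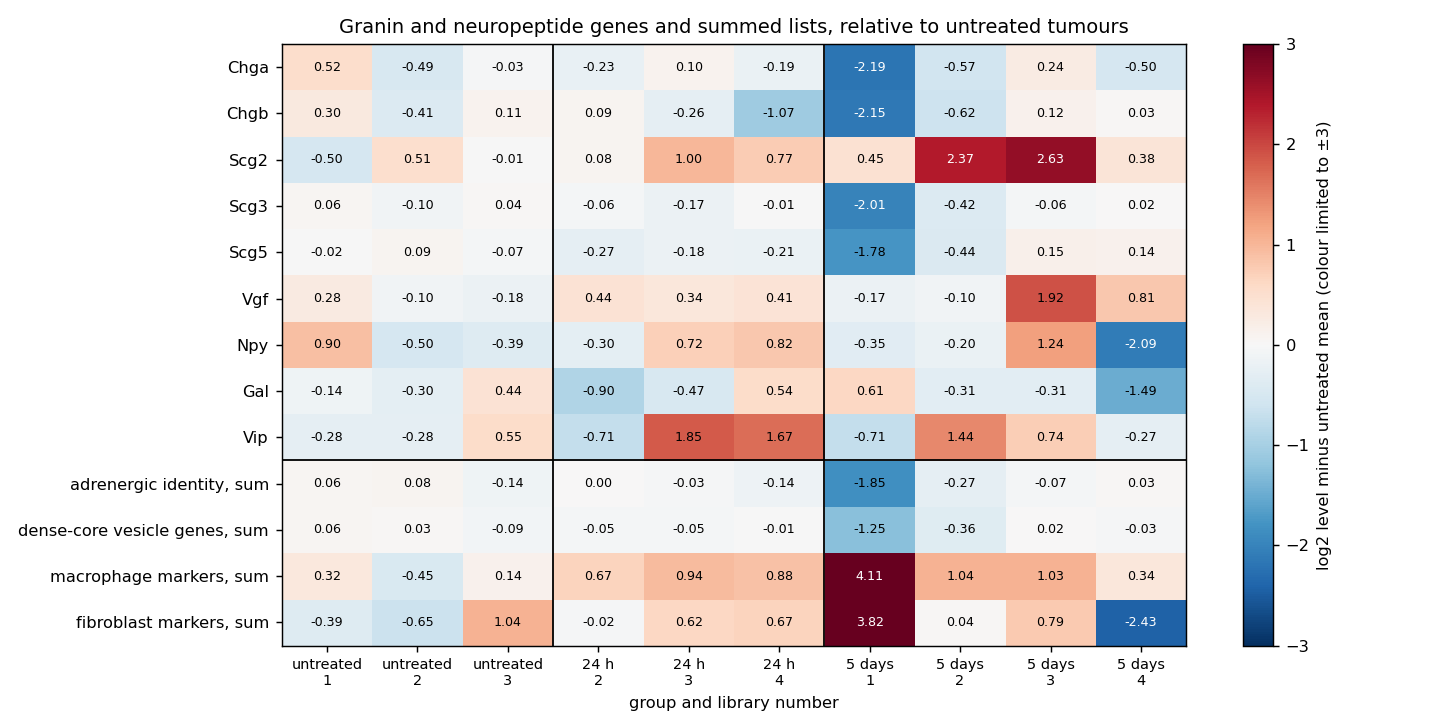
Log2 difference of each library from the untreated mean, for the 9 genes (on log2 of CPM + 0.5) and for 4 summed lists (on log2 of CPM); blue is lower and red is higher. Chga, Chgb, Scg3 and Scg5 lie between -2.19 and -1.78 in 5-day library 1, beside -1.85 for the adrenergic sum.

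Of 12 enzymes and inhibitors that act in turning these precursors into peptides, 11 were tested, and none passed in any comparison. At 5 days 6 lay higher and 5 lower than in untreated tumours, with a median log2 fold change of 0.07. Without 5-day library 1, 5 lay higher and 6 lower, with a median of -0.04. Cpe, the carboxypeptidase that trims cleaved peptides, stayed between 154 and 237 CPM, and Pam, which amidates peptides such as NPY and VIP, between 149.6 and 238 CPM. Of both neuroendocrine convertases, Pcsk2 was measured at 3.05 to 23.9 CPM, and Pcsk1, which was not tested, reached at most 0.523 CPM, within the bound for a gene without a count. Pcsk2 averaged 10.3 ± 5.96 CPM at 5 days (n = 4) against 19.4 CPM in untreated tumours, with a log2 fold change of -0.91 ± 0.47 (edgeR adjusted p = 0.538). Without 5-day library 1 its 5-day mean was 12.8 CPM and the log2 fold change -0.61 ± 0.27 (edgeR adjusted p = 0.578). The other gene named by rank, Pcsk1n, which encodes an inhibitor of convertase 1, stood at -0.65 ± 0.40 at 5 days against untreated and at -0.82 ± 0.40 against 24 h, with edgeR adjusted p = 0.549 and 0.581. Its values in the 9-library fit were -0.37 ± 0.18 and -0.54 ± 0.18, with edgeR adjusted p = 0.614 and 0.602.

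Genes for assembly and release of dense-core vesicles lay lower at 5 days in most cases, and the size of the difference depended on 5-day library 1. Of 30 genes, 27 were tested, and 0 passed in any comparison. At 5 days 4 lay higher and 23 lower than in untreated tumours, with a median log2 fold change of -0.26. Without 5-day library 1 the split was 11 higher and 16 lower, with a median of -0.03. Of all tested genes, 49.4% lay lower in the first fit and 50.5% in the second. For 5 days against 24 h, 2 lay higher and 25 lower, with a median of -0.32, beside 47.2% of all genes lower. Without 5-day library 1, 8 lay higher and 19 lower there, with a median of -0.05, beside 50.5%. The summed level was 1557 CPM in that library, against 2874 to 3749 CPM in the other 5-day libraries and 3479 to 3868 CPM in untreated tumours. The 2 genes with the smallest unadjusted p without that library were Unc13a, a vesicle priming factor, at -0.33 ± 0.11 for 5 days against 24 h, and Syt11, a synaptotagmin, at -0.29 ± 0.11, both with edgeR adjusted p = 0.602. Ptprn, a transmembrane protein of dense-core vesicles chosen here after its values were seen, was highest in 5-day library 3 at 48.2 CPM. It was nearly as high in 24 h library 4, at 46.9 CPM. Vgf, Scg2, Npy and Scg5 were highest in 5-day library 3 too, although Scg5 was at 108 CPM there and at 107 CPM in 5-day library 4.

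Receptors for NPY, galanin and VIP were mostly scarce. Of 11 receptor genes, 7 averaged under 1 CPM and 1, Adcyap1r1, passed the filter. Adcyap1r1 encodes the PAC1 receptor, which binds PACAP with high affinity and VIP more weakly. It was measured at 65.2 to 266 CPM at 5 days, against 202 to 243 CPM in untreated tumours, with a log2 fold change of -0.33 ± 0.38 (edgeR adjusted p = 0.713), and -0.06 ± 0.19 without library 1. The NPY receptor Npy2r stayed between 0.349 and 2.07 CPM, the VIP receptor Vipr2 between 0.348 and 2.18 CPM, and Vipr1 at 6.76 CPM in 5-day library 1 against 0 to 1.38 CPM in the others.

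Among 25 genes listed as other neuropeptide precursors, 18 averaged under 1 CPM and 6 were tested. None passed. At 5 days 3 lay higher and 3 lower than in untreated tumours in both fits. The median log2 fold change was -0.52, or -0.30 without library 1. The 3 higher ones, named to complete the list, were Dbi, Gnas and Pomc. Their means were 122, 350.3 and 3.09 CPM at 5 days, against 35.4, 331 and 2.68 CPM in untreated tumours. Without library 1 the 5-day mean of Dbi was 42.8 CPM. Dbi and Gnas also encode proteins with roles other than as peptide precursors, and counts per gene do not separate these roles. Pnoc, the precursor of nociceptin, read 1.09, 1.21, 1.20 and 1.24 CPM at 5 days, against 2.98, 2.62 and 5.23 CPM in untreated tumours. All 5-day libraries lay below all untreated ones, as 4.89% of tested genes did, and the log2 fold change was -1.58 ± 0.34 (unadjusted p = 0.00114, edgeR adjusted p = 0.538). Pnoc passed the low-count filter only through untreated and 24 h libraries. Neither its lower sign at 5 days nor this p-value is therefore independent of the filter. Adcyap1, the precursor of PACAP, read 0.218, 2.93, 1.72 and 3.38 CPM at 5 days against 2.45, 12.6 and 17.6 CPM in untreated tumours, with overlap of the groups. Its log2 fold change was -2.37 ± 0.80 with 10 libraries and -2.01 ± 0.66 with 9, with edgeR adjusted p = 0.538 and 0.459. Cartpt, the precursor of the CART peptides, was named after its values were seen and ranged from 17.7 to 60.7 CPM at 5 days, against 36.1 to 131 CPM in untreated tumours, with a log2 fold change of -1.12 ± 0.51 (edgeR adjusted p = 0.538).

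Noradrenaline synthesis, which shares the vesicles with the granins, was measured beside them. Of 10 genes for catecholamine synthesis, storage and uptake, 1 lay higher and 9 lower at 5 days than in untreated tumours, with a median log2 fold change of -0.37, or of -0.17 without library 1. Dbh, which makes noradrenaline inside the vesicle, read 5.67, 15.5, 20.0 and 11.4 CPM at 5 days, against 66.2, 52.7 and 25.4 CPM in untreated tumours. Its 5-day libraries all lay below the untreated ones, as for 4.89% of tested genes, with a log2 fold change of -1.87 ± 0.57 (edgeR adjusted p = 0.538), and -1.62 ± 0.62 without library 1 (adjusted p = 0.561). Th, the first enzyme of the pathway, differed by -0.35 ± 0.32 and Pnmt, which makes adrenaline in chromaffin cells, by -0.30 ± 0.64, or by -0.09 ± 0.60 without library 1. Of 5 chromaffin markers, Penk reached at most 2.96 CPM and was not tested, and the other 4 lay lower at 24 h and at 5 days than in untreated tumours, with medians of -0.79 and -0.74 and with 0 called. Without library 1 the 5-day median was -0.42. Their sum was 134 to 335 CPM in untreated tumours, 134 to 175 CPM at 24 h and 29.2 to 240.2 CPM at 5 days, and Dgkk alone gave 122 to 325, 128 to 168 and 26.2 to 227 CPM of it.

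Of 14 genes of adrenergic identity, 0 lay higher and 14 lower at 5 days than in untreated tumours, with a median log2 fold change of -0.63, and 4 higher and 10 lower without library 1, with a median of -0.39. Gata3 and Hand2, transcription factors of sympathetic neurons, stood at -0.37 ± 0.10 and -0.58 ± 0.17 at 5 days against untreated tumours without that library, with edgeR adjusted p = 0.355 and 0.363. Of 13 regulators of granin and neuropeptide genes, 9 lay higher and 4 lower at 5 days, with a median of 0.10, and none passed. Without library 1, 8 lay higher and 5 lower, with a median of 0.03. Crtc2 and Crtc3, coactivators of CREB, differed by -0.01 ± 0.17 and 0.32 ± 0.12 at 5 days, with edgeR adjusted p = 0.975 and 0.538. Without library 1, where it was at 51.7 CPM, Crtc2 stood at -0.17 ± 0.12 against untreated tumours and at -0.41 ± 0.12 against 24 h tumours, with edgeR adjusted p = 0.721 and 0.602. Mycn differed by -0.29 ± 0.43 at 5 days with 10 libraries and by 0.02 ± 0.13 with 9. These counts are those of the mouse gene on chromosome 12, and whether they include reads of the MYCN transgene was not tested.

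Across the 10 libraries, the abundant granins had profiles similar to each other, and among the 9 genes the rarer ones did not. Likeness was measured as the root mean square difference of log2(CPM + 0.5), centred on each gene's mean, and it is a description of libraries that share 5-day library 1. Scg3 and Scg5 were the closest pair of the 9, at 0.16, followed by Chga and Scg3 at 0.30. Among 12508 tested genes with a mean of at least 5 CPM, the nearest to Scg3 were Reep1 at 0.07 and Ddx25 at 0.08, and the nearest to Scg5 were Nsg1 at 0.08 and Mex3b at 0.09. Chga lay nearest to Hist3h2ba at 0.15 and Rab3b at 0.21, and Chgb to Zcchc12 at 0.20 and Hrk at 0.22. The nearest genes of the other 5 lay further off, among them Itgb8 at 0.61 for Scg2, Gm47163 at 0.31 and Grm3 at 0.37 for Vgf. For Npy these were 3010001F23Rik at 0.53 and Gm26694 at 0.63, and for Gal Gm5864 at 0.31 and Nes at 0.33. For Vip they were Slc6a2, the noradrenaline transporter, and Ptpn5, both at 0.55. A value of 0.31 is still below that of Chga and Chgb, at 0.37. Scg2, Gal and Vip averaged under 5 CPM, so genes of their own level were not among the candidates. The spread of each gene over the 9 libraries without 5-day library 1 also divided the abundant granins from the rarer genes. Besides Scg3, the coefficient of variation was 13.7% for Scg5, 26.9% for Chga and 27.0% for Chgb, where counting alone gives 4.35%, 2.96% and 1.44%. It was 61.7% for Vgf, 61.3% for Npy and 95.4% for Scg2, where counting alone gives 8.98%, 16.1% and 18.5%. For Gal and Vip, at 58.8% and 100.2%, counting alone gives 39.1% and 43.3%.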

How the data were processed

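Whole-number counts per Ensembl gene were used as deposited, 1 file for each of 10 libraries. The submitters' processing notes name mm10 as the build and list TopHat2 2.1.1, HISAT2 and edgeR without roles. Not given in the sources used here are the read counter, its annotation and its strand setting. Symbols and coordinates came from GENCODE M21, which named 54409 of 54446 identifiers. No exon of the 9 genes overlapped an exon of another gene.

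Counts were analysed with edgeR 4.0.16 in R 4.3.3: filterByExpr (minimum count 10, minimum total 15), TMM scaling, 1 mean per group, robust quasi-likelihood F tests and Benjamini-Hochberg adjustment over all tested genes, with a threshold of 0.05. SEs were derived from the F statistic, and 95% intervals use its degrees of freedom. CPM use scaled library sizes. Alternatives were DESeq2 (1.42.0), edgeR with size factors from DESeq2, other filters, only the groups compared, a replicate block, limma 3.58.1 voom with library weights and leaving out single libraries. Leaving out 5-day libraries 1 and 2 was added after seeing the data. The 9 genes, lists and tests were chosen with earlier results of these data known. Named in the text were the 9 genes, the 2 tested genes per list with the smallest unadjusted p without 5-day library 1 (none was called), a set of processing, catecholamine and regulator genes, receptors of at least 1 CPM and the 2 nearest profiles per gene, of which 1 is not reported here. Other genes are marked as chosen after their values were seen. Promoter sequences are RefSeq's (GRCm38.p6). Plots used matplotlib 3.10.9.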

Additional observations from a re-analysis of the deposited data

Results flagged for a closer look

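Dixon's test, applied to the 5-day group of 4 libraries, set no library apart from the rest for any of the 9 genes. The test was applied to 54 genes and list sums, and chance alone gives about 1 such result in 20. With only 4 values, the test cannot show that no library lay far from the rest. Chga, Chgb, Scg3 and Scg5 were at 20.8%, 22.0%, 24.6% and 28.7% of the untreated mean in 5-day library 1. Set apart by the test in that library were Mycn at 21.6 CPM, Rest at 39.5 CPM, Hand2 at 4.80 CPM and Crtc2 at 51.7 CPM. The same library stood apart in the summed CPM of the regulators of granin and neuropeptide genes (793), of macrophage markers (12962), fibroblast markers (18168), adipocyte markers (8093) and T cell markers (85.1). In 5-day library 2, the summed level of adrenal cortex markers stood apart at 1873 CPM. These are values of single libraries, and what lies behind them was not tested.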

How the results depend on the processing

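No alternative brought any of the 9 genes past the threshold. Of 386 values recomputed under 18 alternatives, 360 kept their sign and 26 turned. With the replicate number as a block, Npy at 5 days was 0.00 and Scg5 for 5 days against 24 h was 0.01, and 0 genes were called. Deviations of same-numbered libraries correlated at 0.21 and 0.25 between 24 h and untreated, at -0.39 to 0.03 between 5 days and untreated and at -0.28 to -0.04 between 5 days and 24 h, and the numbers were not taken to pair them. With voom weights, Npy at 5 days was 0.19, and Chgb and Scg5 for 5 days against 24 h were 0.47 and 0.17. Without 5-day libraries 1 and 2, the values at 5 days against untreated were 0.04 for Chgb, 0.14 for Scg5 and 0.24 for Npy, and against 24 h 0.01 for Chga, 0.41 for Chgb, 0.05 for Scg3 and 0.36 for Scg5. Leaving out 1 library gave, at 24 h, -0.36 to 0.14 for Chga and -1.04 to 0.11 for Gal; at 5 days against untreated, -0.91 to 0.58 for Npy and -0.53 to 0.01 for Gal. Against 24 h it gave -0.35 to 0.21 for Chgb, -0.27 to 0.19 for Scg5, -0.15 to 0.72 for Vgf and -0.46 to 0.69 for Gal. Over single libraries left out, Scg2 at 5 days ranged from 1.52 to 2.35 and Vgf from 0.25 to 1.12.

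Counts of called genes moved in few settings. DESeq2 called 21 genes at 5 days and 3 against 24 h, the fit of only the compared groups called 7 at 24 h, and leaving out 1 library gave 0 to 2 at 24 h. Without 5-day libraries 1 and 2, 3 genes were called at 24 h and 2 for 5 days against 24 h. The cause was not tested. Under the filter of 5 CPM on average, Scg2, Gal and Vip had no value. Gal and Vip had at most 3 counts in 2 and 5 libraries, and their spread was above that of counting alone.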
